A study of Homo sapiens with 50 samples.

Results

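Among the genes with the largest differences between unirradiated H1299 lung carcinoma cells and H1299 cells carrying a short hairpin RNA against *RAD9*, 5 were followed here across every exposure group of both lines: *NNMT*, *LIMCH1*, *PDE2A*, *FTCD* and *FAM125B*. They are 5 of 25940 gene names on the array and are read by 9 of 34127 non-control probes, which were taken by gene name. They were selected on their low measured level in sham-irradiated H1299shRAD9 cells, so that difference is given below as a description with no test. Earlier results of these data were known when the members were chosen, so the tests are not fully independent of the choice. The tests concern the irradiated and bystander dishes, whose values the rule of the choice did not use. These dishes held the same cell lines, so they show how a line difference carried over to other samples of those lines, not how it would recur in a new transfection.

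H1299 is a human non-small cell lung cancer line. H1299shRAD9 cells came from it by retroviral transfer of the vector pSUPER.retro.puro with the hairpin, followed by puromycin selection of stable clones, and the study's methods name a pair of independent transfectants without recording which one gave each sample. In each line 5 exposure groups of 5 samples were hybridised, 50 arrays in all, with RNA taken 4 h after exposure. CTL cells were sham-irradiated. DBP cells received 1 Gy of 4He ions (125 keV per micron) and BP cells were their unirradiated neighbours in the same dish, in dishes whose bystander cells responded with micronuclei. DBN and BN cells were the irradiated cells and the bystander cells of dishes whose bystander cells did not respond. The study describes the samples of a group as independent, and the labels number them without naming the dish or transfectant of each, so p-values measure the spread between these samples of the 2 lines.

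*NNMT* encodes nicotinamide N-methyltransferase, which moves a methyl group from S-adenosylmethionine onto nicotinamide and so touches both NAD salvage and the methionine cycle. *FTCD* encodes formimidoyltransferase cyclodeaminase, an enzyme best known from liver that passes a one-carbon unit from histidine breakdown to tetrahydrofolate. *PDE2A* encodes a phosphodiesterase that hydrolyses cyclic AMP and cyclic GMP and is itself stimulated by cyclic GMP. *LIMCH1* encodes a protein with LIM and calponin-homology domains that activates non-muscle myosin II, and *FAM125B*, now called *MVB12B* in RefSeq, encodes a subunit of ESCRT-I, part of the machinery that sorts membrane proteins into endosomal vesicles. RAD9 itself forms a ring-shaped clamp with RAD1 and HUS1 that is loaded onto damaged DNA.

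The sequences of 4 probes are shown because *FTCD* and *LIMCH1* were each read more than once and the probes of a gene did not always give the same result. Positions are in hg19 as the array annotation gives them. The *NNMT* probe lies at chr11:114183072-114183131 on the plus strand. The second *LIMCH1* probe spans chr4:41694344-41699178 on the plus strand, 4835 bases of genome for 60 bases of probe, and so crosses an intron. The first *FTCD* probe, used for the values below, lies at chr21:47557154-47557213 on the minus strand, and the second spans chr21:47556966-47557190, also across an intron. Capitals mark the 37 bases that both *FTCD* probes hold, so these 2 probes are not independent readings.
NNMT, A_23_P127584: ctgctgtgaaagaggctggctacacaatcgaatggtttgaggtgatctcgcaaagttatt
LIMCH1, A_23_P83403: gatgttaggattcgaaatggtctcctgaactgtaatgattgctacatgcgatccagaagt
FTCD, A_33_P3225022: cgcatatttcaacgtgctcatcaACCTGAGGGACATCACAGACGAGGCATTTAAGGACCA
FTCD, A_23_P91552: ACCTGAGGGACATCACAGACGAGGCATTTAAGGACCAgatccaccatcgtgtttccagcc
The other probes are named by position only. *LIMCH1* was also read at chr4:41700725-41700784 (plus strand), *PDE2A* at chr11:72287250-72287309 (minus strand), and *FAM125B* at chr9:129269235-129269294, chr9:129268446-129268505 and, for the transcript NM_001011703, chr9:129159847-129159906 (plus strand). Unless another probe is named, values are from the brightest probe of each gene.

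A level below is log2 of the background-corrected probe intensity minus the median of that array, so 0 is the array's median probe and a difference of 1 is a doubling. All 9 probes passed the filter on low values, which asked for at least 4 of 5 arrays well above background in at least 1 of the 10 groups. All passed it in every H1299 group. In H1299shRAD9 *PDE2A* passed in 5 groups, *FTCD* in 4, *LIMCH1* in 2, *NNMT* in 1 and *FAM125B* in 0, so *FAM125B* was kept only through the line in which it was high, and the number of kept members says nothing about them. In bulk RNA, fewer cells of a kind and less RNA per cell cannot be told apart.

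Across the 50 arrays the median processed intensity ran from 68.4 to 344, and 55.4% to 83.4% of probes were well above background. The number of arrays, not a read depth, limits the precision. The arrays lay on 13 slides scanned on 6 days. The lineage markers *VIM*, *KRT8*, *KRT18* and *CDH2* were well above background on all 50 arrays. Of markers of other cell types, 1 of 7 fibroblast, 4 of 4 leukocyte, 2 of 3 endothelial, 2 of 3 airway and 1 of 3 hepatocyte probes were above background on most arrays, while *LUM*, *PDGFRB* and *TTR* were so on none. The leukocyte probe for *PTPRC* averaged 0.17 in H1299 and 0.97 in H1299shRAD9, and that for *CD79A* 4.16 and 4.54, and the part of such probes in the results was not tested.

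The gene that the hairpin targets was checked first. The *RAD9A* probe averaged 3.90 ± 0.35 (SD, n = 25 arrays) in H1299 and 3.72 ± 0.22 (n = 25) in H1299shRAD9. In DBP the difference between the lines was -0.34 (SE 0.18, limma adjusted p = 0.305), and it was -0.13 (BP), 0.06 (DBN) and -0.11 (BN) in the others. Over all irradiated dishes it was -0.13 with a 95% interval from -0.40 to 0.14 (adjusted p = 0.505). In CTL, given without a test, the *RAD9A* probe was lower in H1299shRAD9, 3.65 ± 0.19 (SD, n = 5, highest 3.85), than in H1299, 4.01 ± 0.13 (n = 5, lowest 3.82). The lines overlapped in CTL and in the other 4 exposure groups, so no level of this probe separates them. Every direction below therefore rests on the line given in the labels.

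In the CTL arrays that chose the genes, *NNMT* was lower in H1299shRAD9 by 4.45 log2 units, the 8th largest fall of 22158 probes. *FAM125B* (-3.92) ranked 20th, *LIMCH1* (-3.62) 28th, *PDE2A* (-3.56) 33rd and *FTCD* (-3.37) 40th. The members were not simply the top of the order: *FAM189A2* (-5.60) and *NEFM* (-4.94) ranked 1 and 2. The probes on either side of each member were close to it, *APBA1* (-4.47) and *PCSK5* (-4.38) around *NNMT*, *GPM6B* (-3.96) and *RFPL4A* (-3.85) around *FAM125B*, *HSD11B1* (-3.63) and *LOC440925* (-3.62) around *LIMCH1*, *CCK* (-3.56) and *WNK2* (-3.54) around *PDE2A*, and *TAC1* (-3.41) and *SYN2* (-3.34) around *FTCD*.

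*NNMT*, the methyltransferase, was high in every H1299 sample. In H1299 CTL, replicates 1 to 5 had levels of 3.20, 3.50, 2.55, 2.71 and 2.75. In DBP they were 3.56, 4.37, 2.55, 2.84 and 2.66, and in BP 2.66, 3.99, 2.42, 2.69 and 2.15. Replicate 2 was the highest sample of these 3 groups. It was also the highest in DBN, where the levels were 2.48, 3.93, 2.61, 2.89 and 2.61, and second to replicate 1 in BN, where they were 3.91, 3.83, 2.68, 2.57 and 2.38. Group means ran from 2.78 (BP) through 2.90 (DBN), 2.94 (CTL) and 3.07 (BN) to 3.20 (DBP), and neighbours in that order lay closer together than their SDs of 0.39 to 0.77.

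All 25 H1299shRAD9 samples lay below all 25 H1299 samples in *NNMT*, but they were not alike. In H1299shRAD9 CTL, replicates 1 to 5 had levels of -0.25, -0.21, -2.17, -3.03 and -1.89. In DBP they were -0.12, -0.33, -2.61, -2.91 and -2.02, and in BP -0.49, -0.31, -2.61, -3.15 and -1.72. Replicates 1 and 2 were above replicates 3, 4 and 5 in each of these groups. The same order held in DBN (-0.02, -0.62, -2.23, -2.44 and -2.21) and in BN (-0.28, -0.58, -2.10, -2.17 and -2.37). Replicates 1 and 2 were well above background on 5 of 5 arrays each and replicates 3, 4 and 5 on 1 of 5 each. Group means sat between -1.66 and -1.50, far closer to each other than the SDs of 0.99 to 1.29.

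The line difference in *NNMT* passed the threshold used by the study (p under 0.006 with a Benjamini-Hochberg adjusted p under 0.10) in all 4 exposure groups outside CTL. In DBP it was -4.79 log2 units (SE 0.56, limma adjusted p = 0.000416). It was -4.44 for BP, -4.41 for DBN and -4.57 for BN. Only 2 of 5 H1299shRAD9 arrays were well above background in DBP, BP and DBN and 4 in BN, so the size of the fall is uncertain. With every H1299shRAD9 array raised to at least the lowest signal that counted as above background on it, *NNMT* was 17.1-fold lower in DBP, 14.7-fold in BP, 21.2-fold in DBN and 22.2-fold in BN. That floor can be set by any probe, and signals not well above background can lie over it. All *NNMT* signals did so in DBN, where the difference stayed at -4.41, so these folds are not lower bounds. With the normexp background correction the differences were -3.26, -2.91, -3.17 and -2.73 log2 units in the same order of groups. The lines did not overlap in any of the 4 groups, and the exact two-sided permutation test of 5 samples against 5 gave p = 0.00794 in each, the smallest it can give. No share of all probes without overlap is given, so here and for the genes below the lack of overlap is only a description. Over the irradiated dishes together the difference was -4.55 with a 95% interval from -5.16 to -3.95. For comparison, the share of all tested probes called lower in H1299shRAD9 was 4.87% (DBP), 3.65% (BP), 2.77% (DBN), 4.2% (BN) and 8.33% over the irradiated dishes, where a further 11.8% were called higher. The median difference of all probes was 0.13 over the irradiated dishes.

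**Figure D1:**
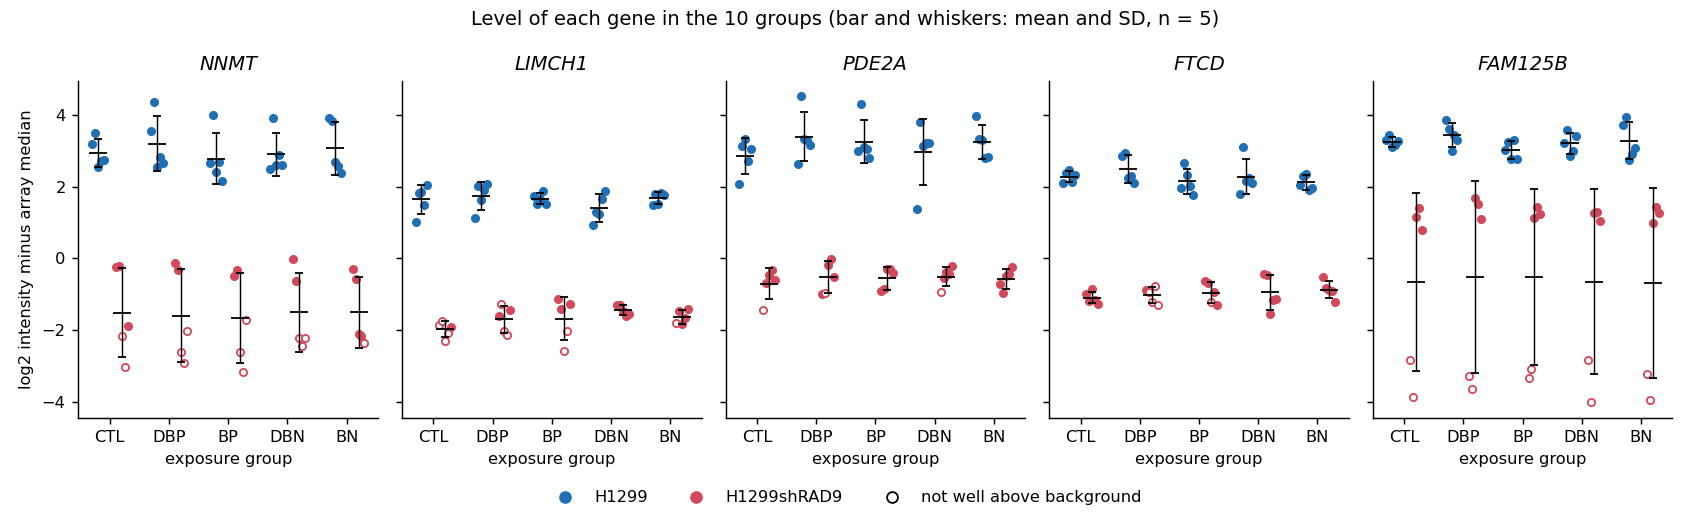
Levels (log2 intensity minus the array median, y axis) of the 5 genes in CTL, DBP, BP, DBN and BN (x axis), with 1 point per array, filled where the probe was well above background, and bars for the mean and SD (n = 5). In every panel the H1299shRAD9 points lie below the H1299 points, and *FAM125B* and *NNMT* spread most widely in H1299shRAD9.

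*FTCD*, the histidine-breakdown enzyme, differed between the lines by about the same amount in each group. Of the members it varied least between replicate numbers in H1299shRAD9 (SD 0.23), though more than the median of all probes (0.16). In H1299 CTL its levels were 2.10, 2.38, 2.47, 2.13 and 2.34, and in H1299shRAD9 CTL -0.99, -1.18, -0.86, -1.16 and -1.26. In DBP the H1299 samples had 2.87, 2.95, 2.24, 2.31 and 2.09 and the H1299shRAD9 samples -0.88, -0.92, -1.21, -0.76 and -1.30. No H1299shRAD9 sample reached the lowest H1299 sample of any group, and the whole ranges were 1.77 to 3.12 in H1299 and -1.55 to -0.43 in H1299shRAD9. H1299 group means ran from 2.12 (BN) and 2.15 (BP) through 2.28 in both CTL and DBN to 2.49 (DBP), and H1299shRAD9 means from -1.09 (CTL) to -0.87 (BN), with neighbours inside 1 SD of each other.

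The *FTCD* difference was -3.51 in DBP (SE 0.20, limma adjusted p = 2.48e-06), with -3.10 in BP, -3.23 for DBN and -2.99 for BN, which is 11.4-fold to 7.93-fold lower, and all passed the threshold with no overlap (exact permutation p = 0.00794 in each group). In DBP only 1 of 5 H1299shRAD9 arrays was well above background, so the 11.4-fold there is uncertain. The second probe, which shares 37 bases with the first as printed above, gave -3.41, -3.20, -3.00 and -2.97 and was also called in all 4 groups. The probes were closely alike over the 25 H1299 arrays (r = 0.91) and less so over the 25 H1299shRAD9 arrays (r = 0.51), where the second was well above background on 13 of 25.

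*PDE2A*, the cyclic nucleotide phosphodiesterase, was the member most often above background in H1299shRAD9, on 22 of 25 arrays. In H1299 CTL its levels were 2.06, 3.14, 3.32, 2.71 and 3.05, and in H1299shRAD9 CTL -1.43, -0.69, -0.46, -0.32 and -0.61. In DBN they were 1.39, 3.81, 3.14, 3.23 and 3.23 in H1299 and -0.95, -0.53, -0.39, -0.45 and -0.22 in H1299shRAD9. One H1299 DBN sample, replicate 1, was low for its group and still above every H1299shRAD9 sample. H1299 means were 2.86 (CTL), 2.96 (DBN), 3.25 (BN), 3.25 (BP) and 3.40 (DBP), with SDs of 0.48 to 0.92, and H1299shRAD9 means lay between -0.70 and -0.51.

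The *PDE2A* difference was -3.93 in DBP (SE 0.32, limma adjusted p = 2.22e-05), with -3.81 in BP, -3.47 for DBN and -3.81 for BN. It passed the threshold in all 4 groups, and the lines did not overlap (exact permutation p = 0.00794 in each). Over the irradiated dishes it was -3.75 (SE 0.21), 13.5-fold lower.

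*LIMCH1*, the myosin II activator, had H1299 CTL levels of 1.03, 1.83, 1.85, 1.48 and 2.04 and H1299shRAD9 CTL levels of -1.85, -1.74, -2.31, -2.07 and -1.91. In BP the H1299 samples had 1.75, 1.53, 1.66, 1.87 and 1.52 and the H1299shRAD9 samples -1.14, -1.41, -2.57, -2.02 and -1.28. Over all exposures H1299 ranged from 0.92 to 2.07 and H1299shRAD9 from -2.57 to -1.14, so the lines stood apart on every array. H1299 means were 1.41 (DBN), 1.65 (CTL), 1.67 (BP), 1.68 (BN) and 1.75 (DBP). H1299shRAD9 means were -1.98 (CTL), -1.69 (DBP), -1.68 (BP), -1.63 (BN) and -1.44 (DBN), and the CTL mean was lower than the next by 0.29, against SDs of 0.22 and 0.37.

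The *LIMCH1* difference was -3.44 in DBP (SE 0.23, limma adjusted p = 5.92e-06), with -3.35 in BP, -2.85 for DBN and -3.31 for BN, all past the threshold without overlap (exact permutation p = 0.00794 in each). Only 2 of 5 H1299shRAD9 arrays in DBP and 3 of 5 in BP were well above background. With these raised to at least the lowest signal that counted as above background, the differences were -3.08 in DBP and -3.02 in BP. The intron-spanning probe gave a less even picture. It was not called in DBP (-1.53, limma adjusted p = 0.214), where H1299shRAD9 replicate 2 had -0.25 against -3.97 to -3.13 in the other 4 samples and H1299 replicate 2 had -2.84. It was -2.57 in BP, -2.94 in DBN and -3.35 in BN. This probe was kept only through H1299, so its calls are not used as support. In those 3 groups it was not well above background on any H1299shRAD9 array, so the sizes of these differences could not be read. With those arrays raised to at least the lowest signal that counted as above background, the folds were 1.65 in BP, 2.34 in DBN and 3.13 in BN. These are not lower bounds either.

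*FAM125B*, the ESCRT-I subunit, was even across H1299 and split across H1299shRAD9. In H1299 CTL its levels were 3.30, 3.43, 3.10, 3.15 and 3.28, and the other H1299 groups had means of 3.02 (BP), 3.21 (DBN), 3.29 (BN) and 3.45 (DBP), with SDs of 0.25 to 0.52, and neighbours in that order lay less than 1 SD apart. In H1299shRAD9 CTL the levels of replicates 1 to 5 were -2.84, -3.86, 1.17, 1.42 and 0.80. In DBP they were -3.27, -3.63, 1.67, 1.51 and 1.09. Replicates 1 and 2 were thus at the low end and not above background, while replicates 3, 4 and 5 were above background but still below the lowest H1299 sample of any group, 2.75. The levels were -3.33, -3.08, 1.14, 1.42 and 1.25 in BP, -2.82, -4.01, 1.26, 1.296 and 1.05 in DBN, and -3.22, -3.93, 0.99, 1.43 and 1.28 in BN. The same replicates were low in all 5 exposure groups, and the group means of -0.69 to -0.52 fall where no sample lay.

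The *FAM125B* difference was -3.97 (SE 0.99, limma adjusted p = 0.0442) in DBP, -3.54 (SE 0.92, adjusted p = 0.0485) in BP, -3.85 (SE 0.87, adjusted p = 0.0305) in DBN and -3.98 (SE 1.00, adjusted p = 0.0382) in BN. It lay past the threshold in all 4 groups and the lines did not overlap. Because the probe was kept only through the line in which it was high, these p-values are a description and are not used as support. Without replicate 1 of both lines it was no longer called in any of the 4, with differences of -3.18 (DBP), -2.84 (BP), -3.31 (DBN) and -3.24 (BN, limma adjusted p = 0.101 to 0.118). Leaving out replicate 2 ended the call in DBP (-3.15), BP (-2.85) and BN (-3.00), and leaving out replicate 5 ended it in BP (-4.05). In the value table that the study deposited, the dim samples are blank, among them all 10 arrays of H1299shRAD9 replicates 1 and 2, and the difference there was -2.18 (DBP), -1.88 (BP), -2.19 (DBN) and -2.20 (BN), called in each.

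Over the irradiated dishes the 5 genes were lower by 4.55 (*NNMT*), 3.84 (*FAM125B*), 3.75 (*PDE2A*), 3.24 (*LIMCH1*) and 3.21 (*FTCD*) log2 units in H1299shRAD9, and all 5 were called, *FAM125B* with the limit given above. With the normexp background correction, which adds an offset and so draws low signals together, they were lower by 3.02, 2.62, 2.80, 2.06 and 2.19 in the same order and all were called, so the folds given here depend on the background correction. That fit treats the 4 arrays of a line and replicate number as a block with 1 correlation for all probes, 0.29, which is well under the likeness of such arrays in *FAM125B* and *NNMT*. With 1 mean per line and replicate number (5 values a line), an alternative added after the data were seen, all 5 were still called. Of 22158 probes tested that way, 1304 were called lower. The *FAM125B* calls in all these fits are again a description and are not used as support. The SE of *FAM125B* then grew from 0.53 to 0.95 (95% interval -5.90 to -1.77, limma adjusted p = 0.0196) and that of *NNMT* from 0.30 to 0.48, while those of *PDE2A* (0.22), *FTCD* (0.17) and *LIMCH1* (0.15) moved little.

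**Figure D2:**
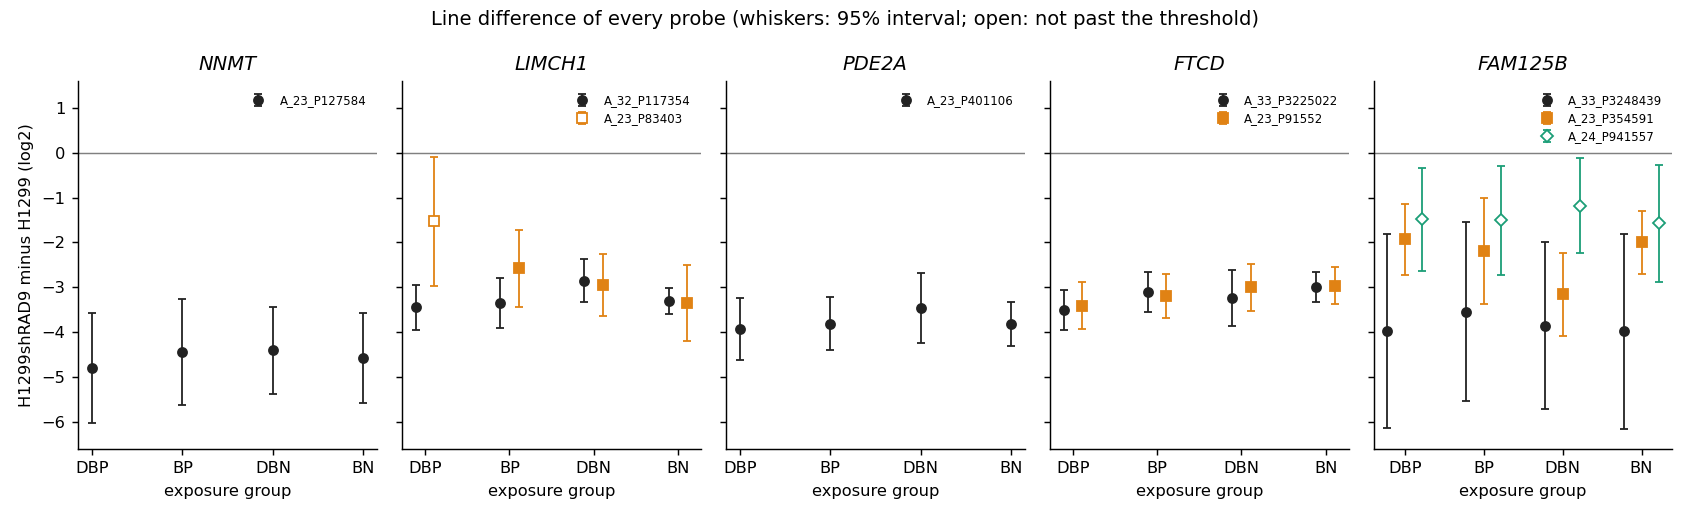
Difference in level between H1299shRAD9 and H1299 (log2 units, y axis) in DBP, BP, DBN and BN (x axis) for all 9 probes, with 95% intervals from limma and open points where the threshold was not passed. The main probes (black circles) lie between -4.79 and -2.85, with the widest intervals for *FAM125B*, and the open points are the intron-spanning *LIMCH1* probe in DBP and the NM_001011703 probe of *FAM125B* in all 4 groups.

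Both lines shared only slides 6 and 13 and scan days 4 and 6, so slide and line could be separated on few arrays. On slide 6, with 1 array of each line, the difference was -4.87 in *NNMT*, -3.63 in *LIMCH1*, -3.38 in *PDE2A*, -3.23 in *FTCD* and -2.24 in *FAM125B*. On slide 13, with 1 H1299shRAD9 array and 3 H1299 arrays, it was -3.34, -2.45, -3.64, -2.51 and -6.56 in the same order. The H1299shRAD9 array was a replicate 5 on slide 6 and a replicate 1 on slide 13, and these replicates differ in *FAM125B*. Scan day 4, with 1 H1299shRAD9 array and 8 H1299 arrays, gave -4.84, -3.39, -3.31, -3.26 and -2.10. Within each of these batches all 5 genes were lower in the H1299shRAD9 array, and no within-batch test was possible with 1 such array. With slide as a fixed block over the irradiated dishes, added after the data were seen, the limma differences were -3.92, -2.89, -3.55, -2.76 and -4.77 in the same order, and all 5 were called. In that fit 1381 probes were called in all. Only slides 6 and 13 set the line difference there, with 1 H1299shRAD9 array each. The calls of all 5 genes in that fit, *FAM125B* among them, are therefore a description only.

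In a pair of the genes the H1299shRAD9 samples differed by replicate number. In H1299shRAD9 the mean *FAM125B* level over the 5 exposures was -3.10 in replicate 1, -3.70 in replicate 2, 1.25 in replicate 3, 1.42 in replicate 4 and 1.09 in replicate 5. The SD between these means, 2.56, ranked 14th of 22154 probes, against a median of 0.16 over all probes. In processed intensity the arrays of replicates 1 and 2 gave 10.5 to 24.5 units, those of replicate 3 gave 284 to 535, those of replicate 4 gave 353 to 494 and those of replicate 5 gave 226 to 373. For *NNMT* the means were -0.23, -0.41, -2.34, -2.74 and -2.04, with an SD of 1.15 that ranked 137th. In H1299 the *NNMT* means of replicates 1 and 2 were also above those of replicates 3, 4 and 5. The SD there was 0.59 and ranked 824th of 22155 probes, and in DBN replicate 1 was the lowest sample (2.48). Divided by the pooled SD within replicate numbers, the *NNMT* SD ranked 207th in H1299shRAD9 (ratio 4.28) and 249th in H1299 (ratio 1.79). Within H1299shRAD9 the replicates that were lowest in *FAM125B* were highest in *NNMT*. Because the arrays form clusters by replicate number, no correlation between the 2 genes is given.

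*PDE2A* followed the direction of *FAM125B* on a smaller scale, with replicate means of -1.001, -0.80, -0.36, -0.30 and -0.40. *LIMCH1* (-1.54, -1.44, -2.04, -1.90 and -1.52) and *FTCD* (-0.69, -0.82, -1.14, -0.98 and -1.24) differed less between replicate numbers, with SDs of 0.27 and 0.23. In H1299 the SD between replicate means was smaller for *FAM125B* (0.26) and *NNMT* (0.59), and the 2 genes did not run in opposite directions, while it was 0.44 for *PDE2A* and 0.25 for *FTCD*, above their SDs in H1299shRAD9 (0.31 and 0.23). There the *FAM125B* means were 3.42, 3.56, 2.90, 3.17 and 3.17, and the *NNMT* means were 3.16, 3.93, 2.56, 2.74 and 2.51.

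The slides followed the replicate numbers only in part. Slide 3 held 2 arrays of H1299shRAD9 replicate 2 and 2 of replicate 3, and there the *FAM125B* levels were -4.01 and -3.93 in replicate 2 against 1.67 and 1.14 in replicate 3. Which transfectant gave each replicate number is not recorded in the labels, and its part in the split was not tested.

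**Figure D3:**
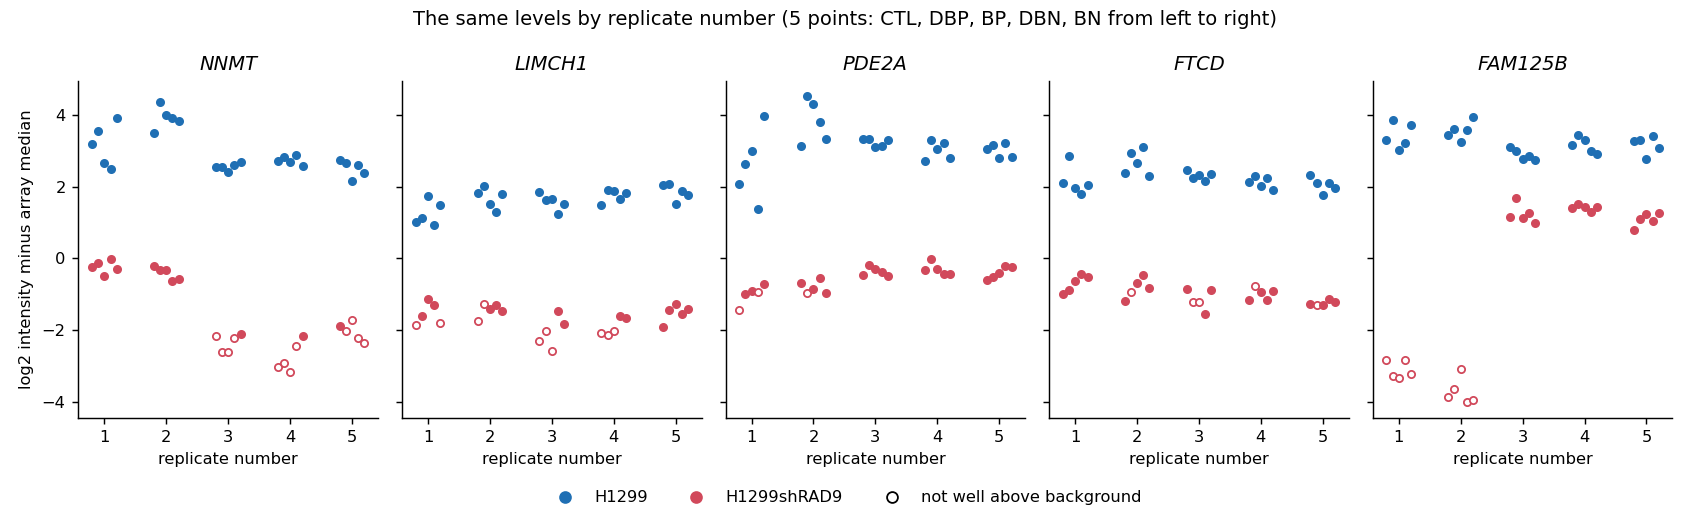
Levels of the 5 genes (log2 intensity minus the array median, y axis) by replicate number 1 to 5 (x axis) in each line, with 1 point per array and filled points well above background. H1299shRAD9 replicates 1 and 2 are at -3.10 and -3.70 in *FAM125B* and at -0.23 and -0.41 in *NNMT*, while replicates 3, 4 and 5 are at 1.09 to 1.42 and at -2.74 to -2.04.

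**Figure D4:**
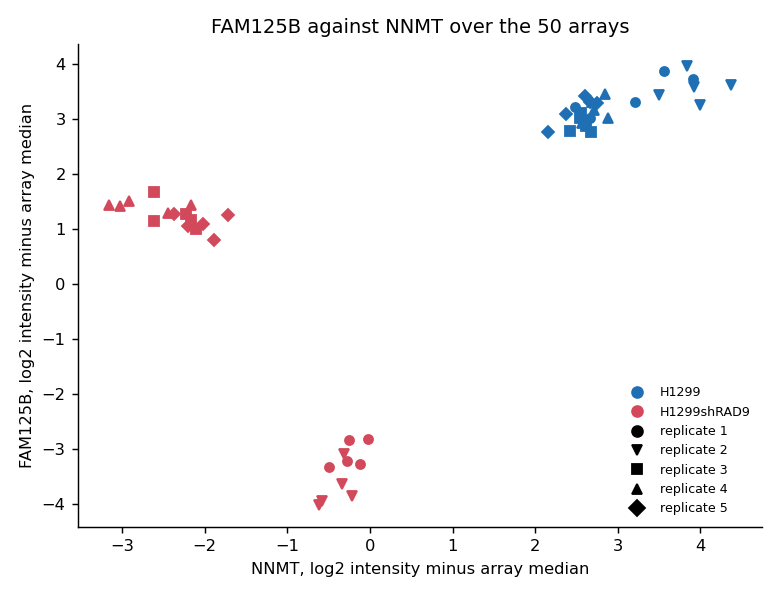
*FAM125B* level against *NNMT* level (both log2 intensity minus the array median) on the 50 arrays, with a colour for each line and a marker for each replicate number. The 25 H1299 arrays sit together at the upper right, and the H1299shRAD9 arrays form separate clusters, replicates 3, 4 and 5 at the left and replicates 1 and 2 at the bottom.

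The other *FAM125B* probes were read alongside. The probe for NM_001011703 had replicate means of -3.69, -3.50, -0.95, -0.97 and -1.52 in H1299shRAD9, with the same replicates low and high as on the main probe. In H1299 it had -0.74, -0.75, -0.91, -0.33 and -0.44. Replicates 3 and 4 of H1299shRAD9 thus came close to the H1299 levels on this probe, unlike on the main one, and the line difference was not called in any of the 4 groups (-1.49, -1.51, -1.18 and -1.57 in DBP, BP, DBN and BN, limma adjusted p = 0.132 to 0.228). It was called over the irradiated dishes (-1.44) in the block fit, and not with 1 mean per replicate number (limma adjusted p = 0.0800). The third probe was above background on 24 of 25 H1299 arrays and 1 of 25 H1299shRAD9 arrays. Its differences were -3.15 to -1.93 in the 4 groups, and the lines overlapped in BP. With H1299shRAD9 arrays raised to at least the lowest signal that counted as above background, it was 1.15-fold lower in DBP, 1.66-fold in BP and 2.92-fold in DBN. These folds are not lower bounds either. Both of these probes were also kept only through H1299, so their calls are not used as support.

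Direct irradiation and bystander exposure were compared with each same-numbered pair, DBP with BP or DBN with BN, as a block, since direct and bystander cells shared dishes. No member was called in either line. Of all probes, 0.668% were called in H1299shRAD9 (148 probes) and 0.199% in H1299 (44 probes). In H1299shRAD9 the direct cells differed from the bystander cells by 0.03 in *NNMT* (95% interval -0.13 to 0.19), 0.09 in *LIMCH1* (-0.12 to 0.30), 0.04 in *PDE2A* (-0.10 to 0.19), -0.07 in *FTCD* (-0.26 to 0.12) and 0.02 in *FAM125B* (-0.19 to 0.23). Direct cells were higher in 4 to 6 of 10 pairs. A shift of more than 0.30 log2 units in either direction thus lay outside all 5 intervals of the main probes. In H1299shRAD9, however, *NNMT*, *LIMCH1* and *FAM125B* were well above background on only 13, 15 and 15 of 25 arrays. A shift in signals near background could not be read. Intervals were wider on the intron-spanning *LIMCH1* probe (-0.21 to 1.21) and the third *FAM125B* probe (-0.75 to 0.16).

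In H1299 the intervals were wider. The difference was 0.12 in *NNMT* (-0.25 to 0.50), -0.09 in *LIMCH1* (-0.39 to 0.20), -0.07 in *PDE2A* (-0.60 to 0.46), 0.25 in *FTCD* (-0.03 to 0.53) and 0.17 in *FAM125B* (-0.11 to 0.46), with direct cells higher in 4 to 8 of 10 pairs. The lowest *PDE2A* pair was -2.58, from replicate 1 of DBN, and without that array the difference was 0.21. The difference between lines in this contrast was largest for *FTCD*, -0.32 (95% interval -0.65 to 0.00042, limma adjusted p = 1.00). Of all probes 0% were called in that comparison with limma, and 548 had an unadjusted p under 0.05.

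**Figure D5:**
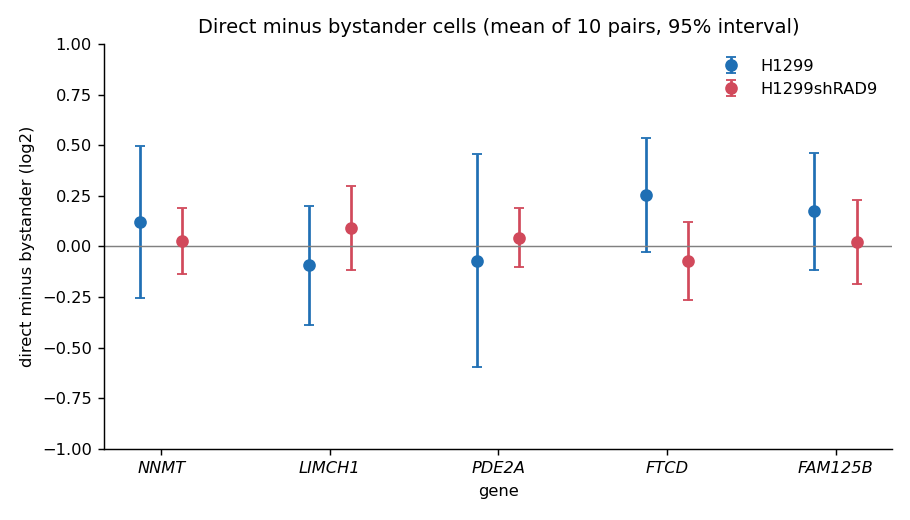
Difference in level between directly irradiated and bystander cells of the same replicate number (log2 units, y axis) for each gene and line, as the mean of 10 pairs (point) with its 95% interval from limma (bar). The means lie between -0.09 and 0.25, every interval includes 0, and the widest is that of *PDE2A* in H1299.

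Set against CTL of the same line, the 4 exposed groups moved little beside the gap between lines. Since CTL chose the genes, these shifts are given without a test. In H1299shRAD9 the exposed groups differed from CTL by -0.15 to 0.01 in *NNMT*, 0.29 to 0.53 in *LIMCH1*, 0.14 to 0.20 in *PDE2A*, 0.07 to 0.22 in *FTCD* and -0.03 to 0.14 in *FAM125B*. In H1299 the ranges were -0.16 to 0.25, -0.24 to 0.10, 0.10 to 0.54, -0.16 to 0.21 and -0.23 to 0.19. The widest shift, 0.54 in *PDE2A*, is small beside its line difference of -3.93 in the same group.

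Genes of the same pathways were read over the irradiated dishes, where a limma call is the threshold above and 8.33% of all probes were called lower and 11.8% higher. Around *NNMT*, 5 of 19 tested genes of NAD and nicotinamide metabolism were called lower and 0 higher (median -0.09, against 0.13 for all probes). *NMNAT3*, which makes NAD from its mononucleotide, was lower by 2.59, *AOX1*, an oxidase that acts on N-methylnicotinamide, by 1.13, *C9orf95*, a nicotinamide riboside kinase, by 0.89, and *NAPRT1*, which starts NAD synthesis from nicotinic acid, by 0.59 (all values are differences in log2 level). In the methionine cycle and methyl transfer list, 3 of 19 were lower and 2 higher (median 0.08). *MAT1A*, a liver S-adenosylmethionine synthetase, differed by -2.01 and its ubiquitous counterpart *MAT2A* by 0.72. *GNMT*, glycine N-methyltransferase, differed by -1.15 and *AMD1*, which draws S-adenosylmethionine into polyamine synthesis, by 0.74.

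Around *FTCD*, 2 of 25 folate and histidine-breakdown genes were called lower and 7 higher (median 0.17). *AMDHD1*, which acts just before the formimino transfer in histidine breakdown, differed by -1.05 and *ALDH1L2*, a mitochondrial formyltetrahydrofolate dehydrogenase, by -0.74. *GLDC* of the glycine cleavage system differed by 0.93 and the folate carrier *SLC19A1* by 0.64. Around *PDE2A*, 1 of 15 other phosphodiesterases was called, *PDE6B* (-1.07), and the list's median was 0.04. Of 19 cyclases and effectors 2 were lower and 3 higher (median 0.12), with *GUCY1A3*, a soluble guanylate cyclase subunit, at 1.02, *PRKAR2B*, a regulatory subunit of protein kinase A, at 0.76, the natriuretic peptide receptor *NPR2* at -0.83 and *NPR3* at -0.57.

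Of 30 ESCRT genes around *FAM125B*, 1 was lower (*CHMP6*, -0.40) and 2 were higher (*VPS36*, 0.42, and *HGS*, 0.38), with a median of 0.06. *TSG101* and *VPS28*, the core subunits of ESCRT-I, differed by 0.05 and -0.07 and were not called. Of 35 actomyosin and LIM or calponin domain genes around *LIMCH1*, 1 was lower, *MYLK* (-1.51), the myosin light chain kinase, and 3 were higher, *ROCK2* (0.45), *DIAPH1* (0.37) and *TAGLN2* (0.33), with a median of 0.12. No tested gene of the phosphodiesterase, ESCRT or actomyosin list differed by as much as the member it was grouped with. The called genes of the other lists also differed by less than their member. The members were chosen for large falls, so this was set by the choice and says nothing about the lists. Scaling the arrays to the 75th percentile or by quantiles moved the median of all probes from 0.13 to 0.03 and 0.04 and took some of these calls away. Under the first 12.3% of all probes were called lower and 7.14% higher, and under the second 11.4% and 7.22%. The NAD list then had 6 lower and 0 higher under both scalings, while the folate list had 2 lower and 4 higher, or 3 and 4, the ESCRT list 2 and 2, or 4 and 1, and the actomyosin list 2 and 2, or 1 and 0. *SLC19A1*, *ROCK2* and *TAGLN2* were not called under either scaling, and *PDE6B*, *HGS* and *DIAPH1* were not called with quantiles, all with unchanged direction.

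The genes whose levels ran most like each member are given as a description, since arrays of a line share their replicate numbers. Over all 50 arrays, where the gap between lines sets most of the likeness, the closest of 16845 genes were *MAGEH1*, *EPAS1* and *KBTBD11* to *NNMT* (r up to 0.98), *MITF*, *LOC400236* and *GPM6B* to *LIMCH1*, *IGFBP2*, *ZCCHC24* and *RFPL4A* to *PDE2A*, *RCAN2*, *CTSH* and *EPB49* to *FTCD*, and *DSP*, *ZNF618* and *NALCN* to *FAM125B*.

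Within the 25 H1299shRAD9 arrays, where the gap between replicate numbers described above enters every r, *FAM125B* had r over 0.8 with 1423 of 16964 genes and under -0.8 with 930, and *DSP* (desmoplakin, r = 0.99), *CAMK1D* and *IRX3* were the closest. *NNMT* had 838 and 1004 such genes, led by *IGSF9*, *SRPX2* and *STRA6*, and *PDE2A* 339 and 186, led by *PSAT1*, *ZNF717* and *SPINT2*. *LIMCH1* had 14 and 2 (*FKBP14*, *CLASP2* and *BBX*) and *FTCD* 0 and 2 (nearest *MR1*, *TIGD3* and *PIGZ*). Many genes thus ran with *FAM125B* and *NNMT* across these arrays and few with *LIMCH1* and *FTCD*.

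Within the 25 H1299 arrays *FAM125B* had 45 genes over 0.8 and 2 under -0.8 of 17034, led by *SYNE2*, *WTIP* and *ENGASE*. *NNMT* had 824 and 25 (*MXD1*, *EPRS* and *CTH*), *FTCD* 473 and 1 (*OCEL1*, *MOB3C* and *BBS9*), *PDE2A* 308 and 0 (*FGGY*, *CYP2R1* and *CCNH*), and *LIMCH1* 30 and 1 (*SLC36A4*, a feature with no gene symbol and *UBE2K*). Desmoplakin, the nearest gene to *FAM125B* in H1299shRAD9 and over all arrays, was not among its 3 nearest in H1299.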

How the data were processed

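RNA of 50 samples was hybridised by the authors to 1-colour Agilent human arrays and read with Agilent Feature Extraction 11.5.1.1, which gave the deposited intensity of each spot after background subtraction, with flags for signal well above background. The study's own deposited table holds median-normalised log2 values of 9502 features per the labels. It was used only as an alternative. Most of its values differed from those computed here by a constant within each array. The lowest correlation on an array was 0.9994, and up to 1042 values of an array were blank. Probe positions are on hg19.

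Here log2 of the processed intensity minus the array median was taken, outlier spots were left out, spots of a probe were averaged, and 22158 of 34127 probes with at least 4 of 5 arrays well above background in at least 1 group were kept. Lines and exposures were compared with limma 3.58.1 in R 4.3.3, and a probe was called at p under 0.006 with a Benjamini-Hochberg adjusted p under 0.10 over all kept probes. These thresholds follow the study. In the comparison over the irradiated dishes, exposure was a factor and line with replicate number a random block. Direct and bystander cells were compared with each same-numbered pair, DBP with BP or DBN with BN, as a block. The deviations of the samples of such pairs had mean correlations of 0.50 to 0.53 in H1299shRAD9 and 0.22 to 0.35 in H1299, although the labels do not state that a number marks 1 dish. Single genes were also compared by an exact two-sided permutation test. The scripts were tested on simulated data.

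The members and the pathway lists were chosen with earlier results of these data known. Named genes are the members with all their probes, the targeted gene, up to 4 called genes with the largest differences from each pathway list, the 3 genes most like each member, and the probes next to each member in the CTL order. *TSG101* and *VPS28* were named in addition, after their values were seen. Alternatives were other scalings, the normexp background correction, other filters, the deposited table, other probes, leaving out each replicate number, slide as a block, and the fit with or without the replicate or pair block. Leaving out 1 H1299 DBN array, slide as a fixed block and the means per replicate number were added after the data were seen.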

Additional observations from a re-analysis of the deposited data

Results flagged for a closer look

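With Dixon's ratio for 5 samples (critical value 0.71), 3 of the 50 groups of the 5 genes had 1 sample far from the others, and chance alone marks about 1 in 20 groups. In H1299 DBN, *NNMT* was 3.93 in replicate 2 and 2.48 to 2.89 in the other samples (ratio 0.720). In the same group *PDE2A* was 1.39 in replicate 1 and 3.14 to 3.81 in the others (ratio 0.724). That array also had the highest share of probes well above background, 83.4%, and its part in the low value was not tested. Without it the *PDE2A* difference between lines in DBN was -3.86. In H1299 BP, *PDE2A* was 4.301 in replicate 2 and 2.80 to 3.12 in the others (ratio 0.787). The H1299 DBN replicate 2 array had the lowest mean correlation with the other arrays, 0.954, and the most saturated probes, 201. The H1299 BP replicate 2 array had the next lowest mean correlation, 0.961. The part of these arrays in the high values was not tested. No group of H1299shRAD9 was marked. Dixon's ratio looks for 1 extreme sample, so it could not mark the *FAM125B* split between replicate numbers described above. The ratio there was 0.05 (BP) to 0.22 (DBN).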

How the results depend on the processing

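In the 4 line comparisons within exposure groups, *NNMT*, *LIMCH1*, *PDE2A* and *FTCD* were lower and called in H1299shRAD9 under every alternative that kept their main probe, and no result changed direction past the threshold. *FAM125B* was lower under every such alternative and called in 42 of 53. Beside the left-out replicates given above, its call was lost with no filter in BP (adjusted p = 0.102) and DBN (adjusted p = 0.107) and with normexp in BN (-2.34, adjusted p = 0.251), and the cause was not tested. With normexp the *NNMT* difference in DBP shrank from -4.79 to -3.26. In the deposited table *LIMCH1* and *FTCD* had too few values per group to be compared.

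Counts of called probes moved more than the members did. In DBP 1506 were called, and 428 with normexp, 895 with the study's filter, 6892 with no filter and 818 in the deposited table. In BP 1700 were called, and 1031 with the study's filter, 1023 with no filter and 764 in the deposited table. In DBN 1053 were called, and 511 with normexp, 661 with the study's filter, 671 with the weaker background flag, 478 with no filter, 629 in the deposited table and 1505 without the H1299 DBN replicate 1 array. In BN 1940 were called, and 99 with normexp, 1140 with the study's filter and 891 in the deposited table. Over the irradiated dishes 4456 were called, and 2817 with the study's filter, 2121 in the deposited table, 7717 with no replicate block and 1381 with slide as a fixed block (3194 with 1 mean per replicate number). The study's filter and the deposited table hold fewer features (12186 and 9300 tested). Between direct and bystander cells, the 148 calls in H1299shRAD9 became 261 with the 75th percentile as scale, 224 with quantile normalization and 74 with no pair block. The 44 in H1299 became 110, 116 and 27 in the same order, 0 with normexp, 23 with the weaker flag and 11 with no filter.

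Leaving out 1 replicate number gave 685 to 1927 calls in DBP, 664 to 1808 in BP, 325 to 1396 in DBN, 995 to 1692 in BN and 2815 to 5078 over the irradiated dishes. Between direct and bystander cells it gave 50 to 159 in H1299shRAD9, 2 to 45 in H1299 and 0 to 1 for the difference between lines. Numbers did not pair the lines (mean correlation of same-numbered samples -0.04 to 0.07), and with the replicate block between lines 1669, 1247, 1523 and 1767 probes were called in DBP, BP, DBN and BN, with no member call changed. Slide as a random block could not be fitted within single exposure groups.

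Scaling to the 75th percentile moved the split of lower and higher calls from 1078 and 428 to 1304 and 325 in DBP, from 809 and 891 to 1207 and 473 in BP, from 613 and 440 to 1068 and 263 in DBN, from 931 and 1009 to 1199 and 562 in BN, and from 1846 and 2610 to 2717 and 1582 over the irradiated dishes.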
